A study of Arabidopsis thaliana with 12 samples.

Results

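Whole Arabidopsis thaliana plantlets of the Columbia 0 ecotype held at 0 °C were compared with plantlets held at 4 °C, the temperature at which cold acclimation is usually studied. The contrast was between 6 of the 12 RNA-seq libraries of the series, 3 from each temperature, chosen by the temperature in the sample labels. All genes were described. Every plantlet was wild type, 14 days old, grown on agar plates with sucrose at 22 °C before the treatment, and each library was made from a pool of 10 plantlets of a plate. The remaining groups, 3 libraries at 10 °C and 3 at 22 °C, carried the same genotype and age. They entered the same fit of 12 samples, and so the low-count filter, the scaling and the estimate of spread. Otherwise they are given only as levels beside the results. The sample labels give 24 h of treatment for every cold group, whereas the text of the series also lists 48 and 72 h in a way that could assign 24 h to 0 °C and 48 h to 4 °C; if so, temperature and duration cannot be told apart.

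Cold acclimation is the process by which plants of temperate origin become more tolerant of freezing after a period of low, non-freezing temperature. In Arabidopsis, the CBF (DREB1) transcription factors are induced early in the cold and bind the C-repeat/DRE element of genes for protective proteins, such as the COR and LEA proteins, and for enzymes of compatible sugars. Cold also reaches gene expression through calcium, the circadian clock, light captured in excess of what carbon fixation can use, and hormones including abscisic acid and jasmonate.

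The libraries held between 32870040 and 34974815 estimated counts at 0 °C and between 33292666 and 41683299 at 4 °C. The composition factors of edgeR's TMM scaling were 0.792 to 0.812 at 0 °C and 0.972 to 0.976 at 4 °C, and the 10 most abundant genes took 9.3% to 9.63% of the counts at 0 °C and 8.44% to 8.81% at 4 °C. Levels are given below as CPM (counts per 1000000 of a library's total, after TMM scaling). As a check of the tissue label, the 21 genes of the light-harvesting complexes summed to between 87300 and 93400 CPM at 0 °C and between 51800 and 54800 CPM at 4 °C, and the 14 root markers to between 197 and 206 CPM at 0 °C and between 201 and 204 CPM at 4 °C, so both shoot and root transcripts were present. The 6 floral organ markers summed to at most 5.71 CPM at 0 °C and 5.17 CPM at 4 °C. In such bulk samples, fewer cells of a type and less RNA per cell cannot be told apart.

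Of 21293 genes tested, 12334 (57.9%) differed between 0 and 4 °C at an adjusted p under 0.05 by edgeR's quasi-likelihood test. There were 6210 genes (29.2%) higher at 0 °C and 6124 (28.8%) lower, so that 50.3% of the calls were higher. That share was 26.2% when libraries were scaled by total counts alone, where the median gene lay at -0.29 on the log2 scale; it lay at -0.01 with TMM scaling. The 3 libraries at 0 °C were all above the 3 at 4 °C in 6597 genes (31.0%) and all below them in 6578 (30.9%). At least 2-fold, 1686 genes (7.92%) were higher and 1562 (7.34%) lower, and at least 4-fold, 423 were higher and 348 lower. With so large a share called, a call alone says little about a gene, and the sizes below carry more of the description. Counts of list members called are to be read beside these shares of 29.2% higher and 28.8% lower. Nothing in the sources used here says more of the replicates than that each came from its own plate, so p-values measure the spread between plates.

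**Figure D1:**
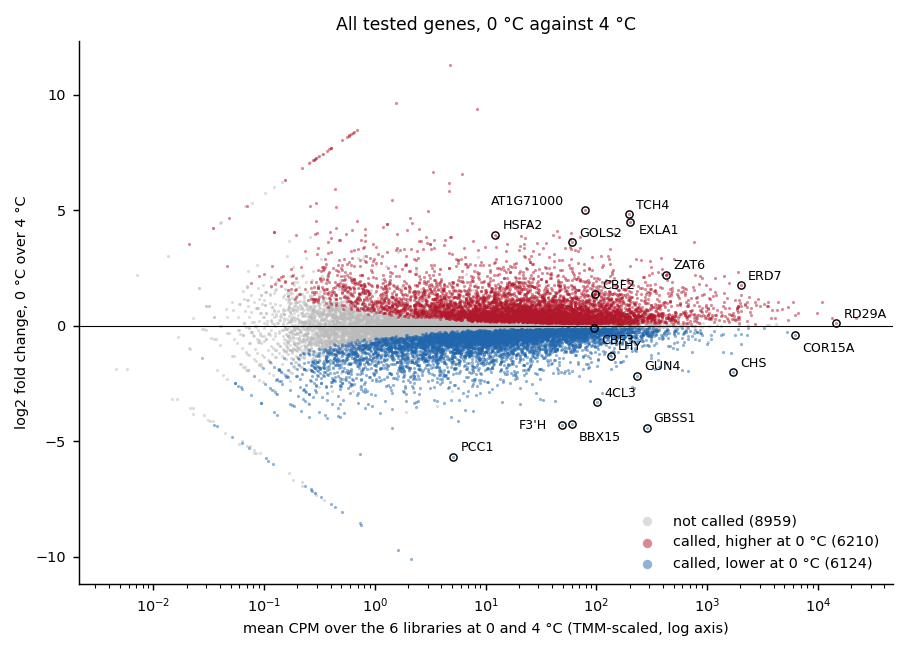
Each point is a tested gene, with the mean CPM over the 6 libraries at 0 and 4 °C on a log axis and the log2 fold change of 0 °C over 4 °C on the vertical axis; red genes were called higher at 0 °C (6210), blue genes lower (6124) and grey genes were not called (8959). The straight bands at the left are genes at or near 0 counts in a group, whose fitted fold change depends on the prior count; RD29A and CBF3 lie close to 0 while TCH4 and GBSS1 lie far from it.

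The CBF factors did not move as a block. CBF2 had 139, 144 and 137 CPM at 0 °C, against 52.5, 53.3 and 57.5 CPM at 4 °C, a log2 fold change of 1.37 ± 0.06 (SE; edgeR adjusted p = 1.43e-09). CBF1 had 14.0, 14.2 and 13.1 CPM at 0 °C, against 6.88, 7.32 and 7.98 CPM at 4 °C (log2 fold change 0.90 ± 0.13). For both, every library at 0 °C was above every library at 4 °C. CBF3 had 87.9, 97.8 and 95.7 CPM at 0 °C, against 98.5, 98.8 and 98.7 CPM at 4 °C, and was not called (log2 fold change -0.07 ± 0.07, edgeR adjusted p = 0.416); scaled by total counts alone it was called lower at -0.35. CBF4, which is known for its response to drought, had 3.41, 3.79 and 2.87 CPM at 0 °C, against 0.331, 0.312 and 0.360 CPM at 4 °C. Of the 6 members of the family listed, DDF1 and DDF2 did not pass the filter on low counts. At 10 °C CBF2 and CBF3 averaged 10.4 and 42.7 CPM, and at 22 °C 1.51 and 2.84 CPM.

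The other early cold transcription factors were mostly higher at 0 °C: 12 of 18 were called higher and 4 lower, with a median log2 fold change of 1.60, against -0.01 over all tested genes. DREB2A, a factor of drought and heat responses, had 343, 342 and 345 CPM at 0 °C, against 57.8, 56.3 and 56.9 CPM at 4 °C (log2 fold change 2.59 ± 0.03, edgeR adjusted p = 5.90e-14). The zinc finger factor ZAT6 had 673, 737 and 694 CPM at 0 °C, against 140, 151 and 163 CPM at 4 °C. ZAT12, a zinc finger factor of many abiotic stresses, rose by 2.25 on the log2 scale and WRKY40 by 2.49. The 4 that fell were RAV1, MYB73, CRF2 and WRKY53, chosen for naming after their values were seen, with log2 fold changes between -0.13 and -1.07. WRKY53 was no longer called without 0 °C replicate 3 (edgeR adjusted p = 0.0527) or without 4 °C replicate 1 (0.0725).

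Among the 24 cold-regulated and LEA genes, 18 were called higher and 3 lower (median log2 fold change 0.73), and 2 widely used markers of cold acclimation, RD29A and COR15A, differed little. RD29A had 15038, 15287 and 15645 CPM at 0 °C, against 14118, 14393 and 13714 CPM at 4 °C, a log2 fold change of 0.12 ± 0.03 (edgeR adjusted p = 0.00792) that was -0.15 when scaled by total counts alone and was no longer called under upper quartile scaling. COR15A, which encodes a chloroplast protein that protects membranes, was lower at 0 °C, with 5175, 5537 and 5212 CPM, against 6827, 6896 and 7459 CPM at 4 °C (log2 fold change -0.41 ± 0.06). KIN2 and COR413IM1 were the other 2 that fell; KIN2 has a near-identical copy, so its value is uncertain. The larger rises were elsewhere in the list. ERD7 averaged 3120 ± 57.9 CPM at 0 °C and 929 ± 7.09 CPM at 4 °C (SD, n = 3 each; log2 fold change 1.75 ± 0.03, edgeR adjusted p = 6.03e-13). The late embryogenesis abundant gene LEA4-5 had 699, 783 and 709 CPM at 0 °C, against 216, 231 and 248 CPM at 4 °C. RD29B, a neighbour of RD29A in the genome and a gene known for its response to abscisic acid, had 254, 268 and 273 CPM at 0 °C, against 90.5, 89.2 and 86.6 CPM at 4 °C (log2 fold change 1.58 ± 0.04). For these 3 genes the groups did not overlap, and levels at 10 °C were 92.9, 9.66 and 12.3 CPM for ERD7, LEA4-5 and RD29B.

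The 250 bases before the start of ERD7 and RD29B are shown because both carry the DRE core beside abscisic acid response elements. They were read 5′ to 3′ on the gene's strand from the RefSeq assembly TAIR10.1, at chr2:7757930-7758179 (minus strand) and chr5:21236771-21237020 (plus strand). Capitals mark the DRE/CRT core (CCGAC), the ABRE core (ACGTG) and, in ERD7, the CAMTA core (CGCGT), each on either strand; the CAMTA core and its reverse overlap in ACGCGT.
ERD7: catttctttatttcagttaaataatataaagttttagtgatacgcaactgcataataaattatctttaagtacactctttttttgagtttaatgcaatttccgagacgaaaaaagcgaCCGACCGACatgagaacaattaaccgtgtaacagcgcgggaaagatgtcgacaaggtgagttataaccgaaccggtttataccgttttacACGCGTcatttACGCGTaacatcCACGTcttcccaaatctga
RD29B: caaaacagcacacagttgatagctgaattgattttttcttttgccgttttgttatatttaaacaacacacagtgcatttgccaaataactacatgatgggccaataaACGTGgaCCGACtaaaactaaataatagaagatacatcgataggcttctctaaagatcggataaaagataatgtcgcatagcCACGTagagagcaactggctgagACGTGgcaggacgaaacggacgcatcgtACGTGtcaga
Over the 20784 tested genes with such a window, the DRE core was found in 19.8% of the windows of genes called and at least 2-fold higher at 0 °C and 7.61% of those at least 2-fold lower, beside 12.8% of all. For the ABRE core the shares were 32.1%, 24.1% and 24.1%, and for the CAMTA core 12.7%, 5.22% and 7.40%. A match of letters is a description of the window and not a site.

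Sugar metabolism differed gene by gene. Of 20 enzymes of raffinose, starch and sucrose metabolism 13 were higher at 0 °C and 3 lower (median log2 fold change 0.32). GOLS2, a galactinol synthase that starts the raffinose pathway, had 111, 119 and 109 CPM at 0 °C, against 8.43, 9.02 and 10.0 CPM at 4 °C (log2 fold change 3.62 ± 0.08, edgeR adjusted p = 3.51e-12). GOLS3, the galactinol synthase known for cold induction, had 2767, 2872 and 2748 CPM at 0 °C, against 2628, 2632 and 2636 CPM at 4 °C. Its log2 fold change of 0.09 ± 0.03 was -0.01 under upper quartile scaling and -0.19 by total counts alone, where it was called lower. It was no longer called under upper quartile scaling, with a mean of at least 5 CPM or with assembled loci kept. GOLS1 was lower, at 174, 192 and 173 CPM at 0 °C, against 329, 338 and 331 CPM at 4 °C. The 3 paralogs thus stood in different directions or sizes in the same plantlets. RS5, a raffinose synthase, rose by 2.07 ± 0.05 on the log2 scale, and the beta-amylases BAM1 (AT3G23920) and BAM9 by 1.61 and 1.67. GBSS1, the granule-bound starch synthase that makes amylose, had 25.7, 25.1 and 26.3 CPM at 0 °C, against 555, 543 and 531 CPM at 4 °C (log2 fold change -4.40 ± 0.03, edgeR adjusted p = 1.36e-15); its level was 438 CPM at 10 °C and 39.5 CPM at 22 °C. The sucrose phosphate synthase SPS4F had 78.6, 76.2 and 67.4 CPM at 0 °C, against 231, 233 and 193 CPM at 4 °C.

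**Figure D2:**
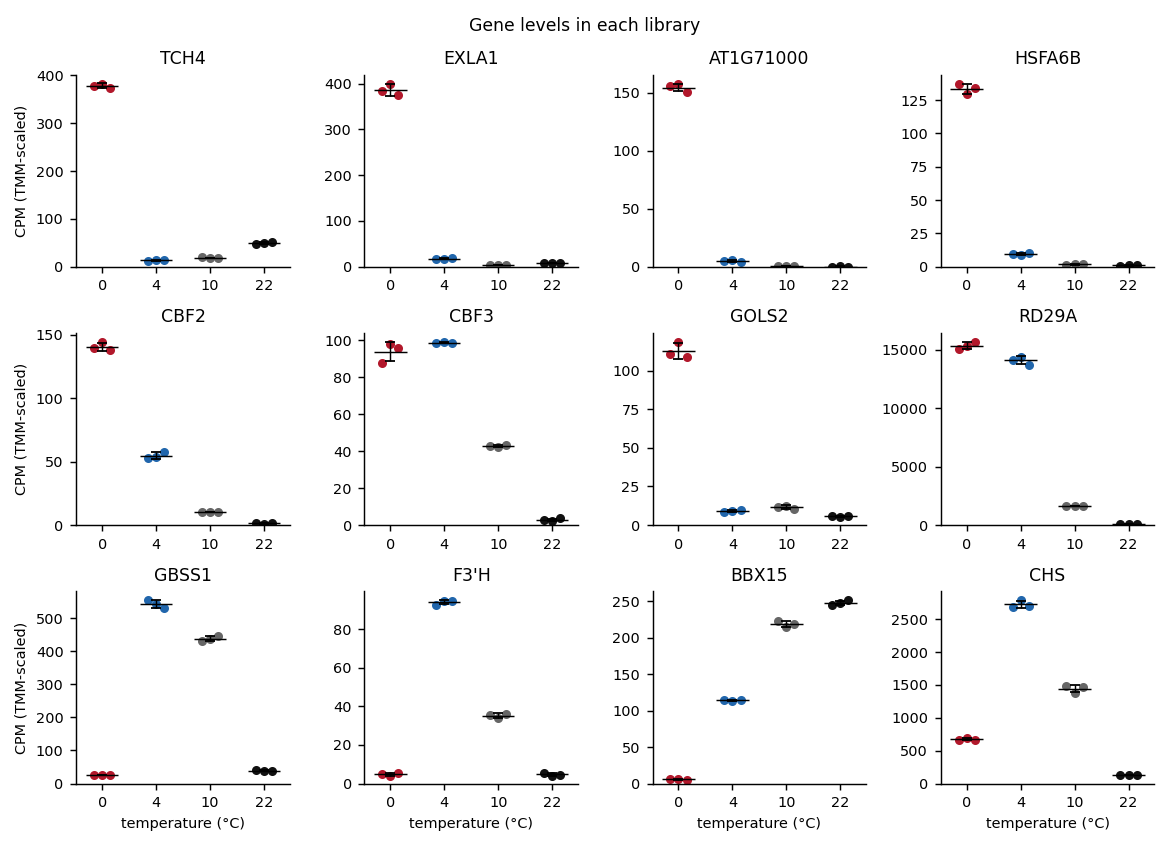
CPM of 12 genes in each library (points) by temperature, with the mean (line) and SD (bars) of 3 libraries. TCH4, EXLA1, AT1G71000, HSFA6B and GOLS2 are highest at 0 °C among the 4 temperatures, CBF3 and RD29A are at similar levels at 0 and 4 °C, and GBSS1, F3'H and CHS are far lower at 0 °C than at 4 °C.

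Cell wall and touch genes were among the 12 largest rises. TCH4, a xyloglucan endotransglucosylase known as a touch gene, had 379, 383 and 373 CPM at 0 °C, against 12.6, 14.2 and 13.2 CPM at 4 °C (log2 fold change 4.83 ± 0.05, edgeR adjusted p = 3.20e-14). The expansin-like gene EXLA1 had 384, 400 and 375 CPM at 0 °C, against 17.3, 15.8 and 18.0 CPM at 4 °C. Its neighbour EXLA3 had 74.1, 78.8 and 74.5 CPM at 0 °C, against 4.31, 5.51 and 5.07 CPM at 4 °C. All 3 genes were lower at 10 and at 22 °C than at 0 °C, with TCH4 averaging 18.2 CPM in the 10 °C libraries and 49.8 CPM in those kept at 22 °C. AT4G35655, annotated as a RIN4 family protein, averaged 16.7 ± 1.1 CPM at 0 °C (SD, n = 3), against 0, 0 and 0.0654 CPM at 4 °C, so that it was all but undetected at 4 °C. The phytosulfokine precursor gene PSK2 rose by 3.90 and HSPRO2 by 3.98. In the list of 35 cell wall genes as a whole, 19 were called higher and 13 lower (median log2 fold change 0.33). Of 9 calcium sensors and touch genes 6 were higher and 2 lower (median 1.00): the calmodulin-like genes CML37 and CML38 rose by 3.80 and 3.55 on the log2 scale, and the vacuolar calcium exchangers CAX1 and CAX3 were the 2 that fell.

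The window before EXLA3, at chr3:16892452-16892701 (plus strand), is shown because a stretch with a W-box and the CAMTA core occurs in it more than once. Capitals mark the W-box (TTGACC or TTGACT) and the CAMTA core, on either strand.
EXLA3: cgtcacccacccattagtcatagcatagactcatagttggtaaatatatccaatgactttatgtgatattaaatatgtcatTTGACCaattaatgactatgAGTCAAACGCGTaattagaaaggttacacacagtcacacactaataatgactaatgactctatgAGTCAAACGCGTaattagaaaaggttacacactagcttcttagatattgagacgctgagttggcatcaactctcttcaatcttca
The W-box was found in 30.8% of the windows of genes at least 2-fold higher, 29.9% of those at least 2-fold lower and 28.4% of all.

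Heat shock genes were higher in the colder plantlets. Of 38 heat shock proteins and factors tested, 28 were called higher at 0 °C and 3 lower, with a median log2 fold change of 1.2; the whole list of 39 summed to between 19700 and 20000 CPM at 0 °C and between 11900 and 12800 CPM at 4 °C. The heat shock factor HSFA2 had 23.5, 22.0 and 23.2 CPM at 0 °C, against 1.22, 1.28 and 2.00 CPM at 4 °C (log2 fold change 3.94 ± 0.23, edgeR adjusted p = 1.91e-08). HSFA6B had 137, 130 and 134 CPM at 0 °C, against 9.20, 8.95 and 10.1 CPM at 4 °C, and HSFA3 rose by 3.85 ± 0.23. AT1G71000, annotated as a DnaJ chaperone, had 155, 157 and 151 CPM at 0 °C, against 4.83, 5.51 and 4.12 CPM at 4 °C (log2 fold change 5.00 ± 0.11), and averaged 0.60 CPM at 10 °C. HSP101, a disaggregase needed for heat tolerance, had 137, 136 and 137 CPM at 0 °C, against 35.7, 37.7 and 36.3 CPM at 4 °C. The 3 that fell were HSP90-1, ROF1 and CLPB3; HSP90-1 had 79.5, 81.8 and 79.6 CPM at 0 °C, against 129, 127 and 120 CPM at 4 °C. Of 12 genes of endoplasmic reticulum stress, by contrast, 3 were higher and 7 lower (median -0.38). Small heat shock proteins have similar copies, and the split of reads between them is uncertain.

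The windows before AT1G71000, at chr1:26770178-26770427 (minus strand), and HSFA2, at chr2:11135374-11135623 (plus strand), hold the heat shock element (blocks of GAA and TTC in alternation, each separated by a pair of unspecified bases, either strand), which 0.908% of the windows of genes at least 2-fold higher, 0.198% of those at least 2-fold lower and 0.423% of all held, and 5 of the 38 windows of the heat shock list. Capitals mark that element, the G-box (CACGTG) in both and the evening element (AAATATCT, either strand) in AT1G71000.
AT1G71000: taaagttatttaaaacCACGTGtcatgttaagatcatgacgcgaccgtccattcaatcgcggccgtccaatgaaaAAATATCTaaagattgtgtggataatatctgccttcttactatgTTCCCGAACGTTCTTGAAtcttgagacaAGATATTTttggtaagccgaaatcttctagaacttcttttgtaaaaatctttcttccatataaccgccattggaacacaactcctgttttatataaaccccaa
HSFA2: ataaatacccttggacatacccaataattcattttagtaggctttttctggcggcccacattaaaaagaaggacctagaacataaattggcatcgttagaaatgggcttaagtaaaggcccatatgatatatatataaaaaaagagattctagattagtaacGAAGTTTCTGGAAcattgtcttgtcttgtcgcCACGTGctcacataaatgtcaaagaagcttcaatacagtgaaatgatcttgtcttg

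Jasmonate genes were higher at 0 °C: 19 of the 21 tested members of the list of synthesis genes and repressors were called higher and JAZ2 alone lower (median 1.07). The call of JAZ2, at -0.13 on the log2 scale, was lost under scaling by DESeq2's size factors (RLE), with no filter on low counts, with DESeq2 and without each of the 6 libraries in turn (edgeR adjusted p = 0.0526 to 0.118 without a library). The lipoxygenase LOX2, which acts at the start of jasmonate synthesis in chloroplasts, had 230, 223 and 234 CPM at 0 °C, against 47.5, 47.2 and 42.7 CPM at 4 °C (log2 fold change 2.32 ± 0.06, edgeR adjusted p = 6.87e-12). OPR3, the peroxisomal reductase of the pathway, had 82.9, 84.7 and 81.3 CPM at 0 °C, against 16.2, 15.8 and 15.1 CPM at 4 °C. LOX3 and AOC1 rose by 2.45 and 2.41. JAZ7 and JAZ8 did not pass the filter. The mean of OPR3 was 21.8 CPM in the 10 °C libraries and 23.7 CPM in the 22 °C libraries.

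Phenylpropanoid and flavonoid genes moved the other way. Of 30 members 23 were called lower at 0 °C and 5 higher (median log2 fold change -1.40). F3'H, the flavonoid 3'-hydroxylase, had 5.07, 3.99 and 5.37 CPM at 0 °C, against 92.8, 94.7 and 94.5 CPM at 4 °C (log2 fold change -4.29 ± 0.10, edgeR adjusted p = 7.12e-12). The 4-coumarate ligase 4CL3 had 19.5, 18.7 and 18.1 CPM at 0 °C, against 188, 182 and 182 CPM at 4 °C. UGT78D1, a flavonol rhamnosyltransferase, had 8.60, 7.53 and 8.20 CPM at 0 °C, against 81.0, 79.1 and 72.4 CPM at 4 °C. Chalcone synthase (CHS), the entry enzyme of flavonoids, was named after its values were seen and had 664, 696 and 669 CPM at 0 °C, against 2686, 2788 and 2706 CPM at 4 °C (log2 fold change -2.01 ± 0.04). The 5 that rose were DFR, LDOX and UGT79B1 of the anthocyanin branch, the glucosyltransferase UGT78D2 and the flavonol regulator MYB111; DFR was no longer called by total counts alone (edgeR adjusted p = 0.149). MYB111 had 29.0, 28.4 and 31.1 CPM at 0 °C, against 14.2, 15 and 13.4 CPM at 4 °C, whereas MYB12, its close relative, fell by 0.96. At 10 °C CHS averaged 1445 CPM and at 22 °C 132 CPM.

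The window before 4CL3, at chr1:24171636-24171885 (minus strand), is shown for its copies of the AC element (ACCTACC, in capitals, either strand), a motif of phenylpropanoid genes.
4CL3: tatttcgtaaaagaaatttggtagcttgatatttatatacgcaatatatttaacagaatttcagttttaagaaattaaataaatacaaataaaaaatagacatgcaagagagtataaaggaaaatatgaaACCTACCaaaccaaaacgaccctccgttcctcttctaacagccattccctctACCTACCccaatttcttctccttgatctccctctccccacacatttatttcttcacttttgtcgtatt
The AC element was in 0.969% of the windows of genes at least 2-fold higher, 2.45% of those at least 2-fold lower and 1.19% of all, and in 2 of the 30 windows of the phenylpropanoid list.

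**Figure D3:**
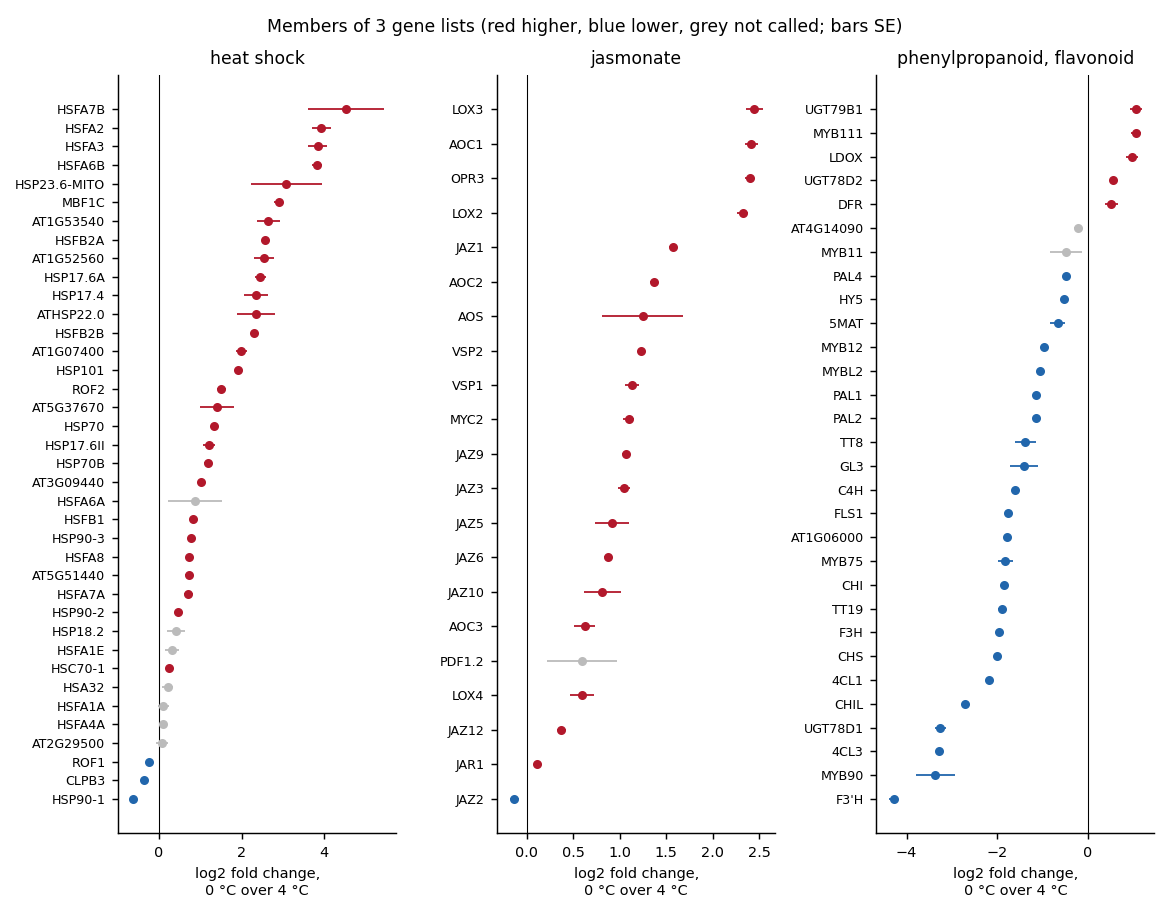
Log2 fold change of 0 °C over 4 °C with its SE (bars) for each tested member of the heat shock, jasmonate and phenylpropanoid lists; red members were called higher, blue lower and grey not called. In the heat shock list 28 of 38 and in the jasmonate list 19 of 21 members are red, and in the phenylpropanoid list 23 of 30 are blue.

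Genes of light capture were higher at 0 °C than at 4 °C. Of 21 genes of the light-harvesting complexes 19 were called higher and LHCB7 alone lower (median log2 fold change 0.87). The call of LHCB7 was lost under RLE scaling, with no filter on low counts, with DESeq2, in the fit of 6 libraries and without each of 4 single libraries in turn (edgeR adjusted p = 0.0951 to 0.162 without a library). LHCB4.2 had 855, 930 and 907 CPM at 0 °C, against 274, 282 and 290 CPM at 4 °C, and averaged 743 CPM at 10 °C and 3018 CPM at 22 °C, so that the libraries at 0 °C lay above the mean at 10 °C and below that at 22 °C. LHCB1.4 rose by 2.32 and LHCB2.3 by 2.25, in families whose near-identical copies make single values uncertain. Of 18 Calvin cycle genes 15 were higher and RCA and FBA1 lower (median 0.42). RCA had 41.5, 38.3 and 45.3 CPM at 0 °C, against a wide spread of 88.0, 53.8 and 109 CPM at 4 °C. Its level is uncertain, since counts of RCA could also lie on assembled transcripts that were left out. Of 17 chlorophyll genes 12 were higher and 2 lower, with a median of 0.27 that was -0.0026 by total counts alone. The 2 that fell were GUN4, which activates magnesium chelatase and had 84.3, 85.9 and 87.2 CPM at 0 °C, against 374, 380 and 390 CPM at 4 °C, and CAO (AT1G44446), the enzyme that makes chlorophyll b, which fell by 1.02. Of 110 genes of the chloroplast genome 37 were lower, a share close to the 28.8% over all tested genes. Only 19 were higher, where the share over all tested genes was 29.2%. At least 2-fold, 21 were lower and 0 higher, beside 7.34% and 7.92% over all tested genes. The median of -0.20 was 0.02 when the filter kept only genes averaging 5 CPM or more.

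The morning factors of the circadian clock differed from each other. LHY had 76.5, 84.1 and 74.0 CPM at 0 °C, against 206, 193 and 180 CPM at 4 °C (log2 fold change -1.30 ± 0.07, edgeR adjusted p = 1.15e-08). CCA1, its partner, had 706, 674 and 695 CPM at 0 °C, against 665, 649 and 619 CPM at 4 °C; its log2 fold change of 0.10 ± 0.04 was -0.17 by total counts alone, and its call was lost under upper quartile scaling, with a mean of at least 5 CPM, in the fit of 6 libraries, with assembled loci kept and without each of 4 single libraries in turn. The evening gene TOC1 had 157, 145 and 152 CPM at 0 °C, against 115, 104 and 109 CPM at 4 °C. In all, 14 of 24 clock genes were higher and 3 lower (median 0.45), the others that fell being PRR5 and CHE. RVE8 is among the 14, though it had only 9, 31 and 0 counts at 0 °C, against 0, 0 and 0 at 4 °C. The hour of harvest was not used here.

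The iron list and the hormone lists below held calls in both directions, in unlike proportions. Over all tested genes 29.2% were called higher and 28.8% lower. Of 20 iron genes 10 were lower and 6 higher (median -0.36). At least 2-fold, 8 of them were lower and 1 higher, beside 7.34% and 7.92% over all tested genes. The iron deficiency factor BHLH39 had 0.468, 0.576 and 0.242 CPM at 0 °C, against 4.39, 3.92 and 4.51 CPM at 4 °C. Of 20 gibberellin genes 10 were higher and 7 lower (median 0.12, which was -0.16 by total counts alone). Of 16 auxin and brassinosteroid genes 12 were higher and 3 lower (median 0.58). GA3OX2, which makes active gibberellin and is not in the gibberellin list, was one of the 12 largest falls and had 0.511, 0.658 and 0.646 CPM at 0 °C, against 10.7, 10.3 and 11 CPM at 4 °C, whereas GASA6, a gibberellin-responsive gene, rose by 3.59. BR6OX2, a brassinosteroid oxidase, fell by 2.00. Abscisic acid genes were split, with 13 of 31 higher and 11 lower: the phosphatase HAI3 rose by 3.69 and CYP707A1, which breaks the hormone down, fell by 1.83. BBX15, a B-box factor, had 6.86, 5.60 and 5.33 CPM at 0 °C, against 114, 113 and 114 CPM at 4 °C.

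**Figure D4:**
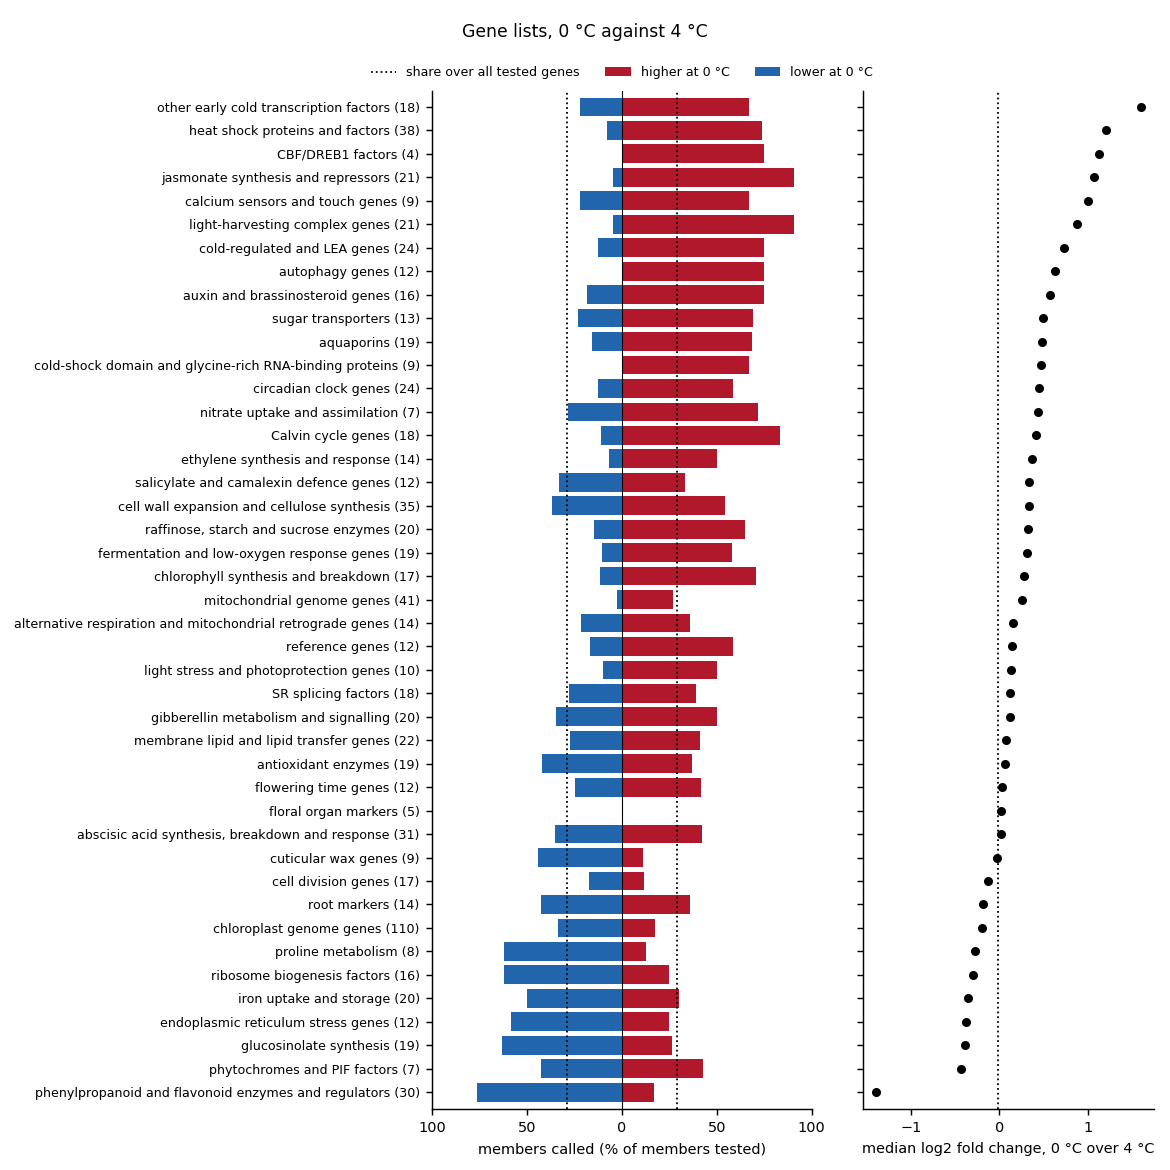
For each list with at least 4 tested members (number in brackets), the left panel gives the percentage of members called higher (red, right) and lower (blue, left) at 0 °C, with dotted lines at the shares over all tested genes (29.2% higher, 28.8% lower). The right panel gives the list's median log2 fold change of 0 °C over 4 °C, from 1.60 for the other early cold transcription factors to -1.40 for the phenylpropanoid list.

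Transcript usage was tested in 4532 loci with several tested transcripts. The shares of a locus's transcripts differed between 0 and 4 °C in 369 loci (8.14%), and by at least 10 percentage points in 191 of them. In AT1G80380, transcript AT1G80380.3 took 25.2%, 21.4% and 20.6% of the locus's counts at 0 °C, against 4.56%, 5.19% and 4.33% at 4 °C (edgeR diffSpliceDGE adjusted p = 1.85e-13). In RCA, the activase of Rubisco, transcript AT2G39730.3 took 94.5%, 94.2% and 97.1% at 0 °C, against 24.1%, 40.7% and 23.4% at 4 °C, and 99.1% at 22 °C. Counts of RCA could also lie on assembled transcripts that are not mapped to it, which cannot be told apart here. In CAT2 (AT4G35090), a catalase, transcript AT4G35090.2 took 5.61% ± 0.51 at 0 °C, against 1.57% ± 0.14 at 4 °C (SD, n = 3 each). CCA1, LHY and GRP7 did not pass the test, with adjusted p of 0.249, 0.346 and 0.796 by edgeR's diffSpliceDGE.

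**Figure D5:**
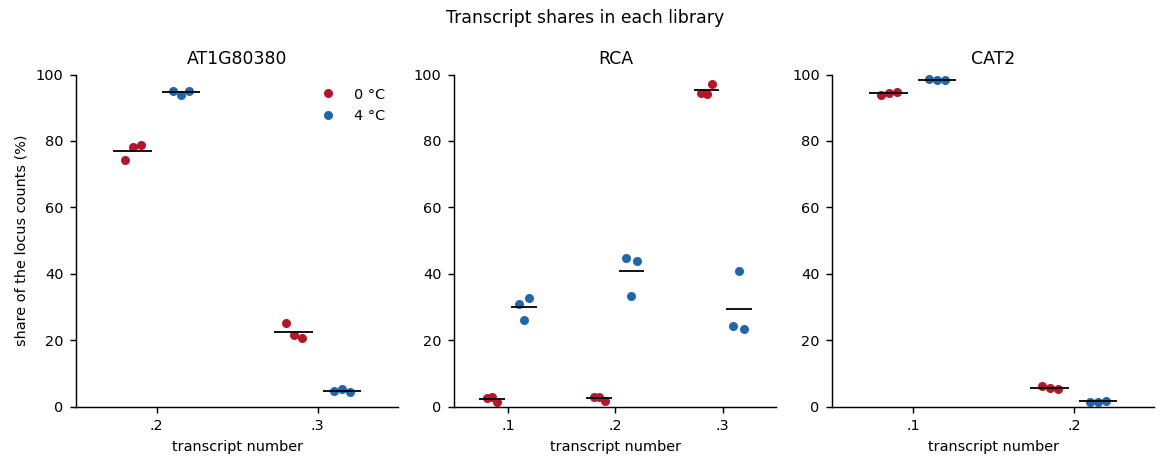
Share of each locus's counts (percent) taken by its transcripts in each library at 0 °C (red) and 4 °C (blue), with the mean of 3 libraries as a line; transcripts of at least 1% are shown by their number. In RCA the transcript AT2G39730.3 averages 95.2% at 0 °C and 29.4% at 4 °C.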

How the data were processed

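Total RNA of whole plantlets was sequenced in 12 libraries in 4 groups of 3, per the labels' protocols. Per the submitters' processing notes, HISAT2 2.2.0, kallisto 0.42.4, edgeR and TAIR10 were used, in roles not given. Estimated counts of each transcript, and CPM of the same transcripts, are what the authors deposited; dividing a column by its sum gave back the CPM (largest difference 5.09e-11). Each also holds 6 columns that match no sample, which were not used. Of 56132 transcripts, 14509 are assembled without an annotated locus and were left out; they held 11.0% to 12.2% of the counts at 0 and 4 °C. No source used here states whether counting was stranded, so overlapping antisense genes cannot be told apart.

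Counts were summed over 33560 annotated loci and rounded. Genes past filterByExpr were tested with edgeR 4.0.16 (R 4.3.3; TMM, glmQLFit and glmQLFTest) in 1 fit of the 12 samples, contrast 0 minus 4 °C, with Benjamini-Hochberg adjustment and a threshold of 0.05. SE was derived from the F statistic of the test, as the size of the log2 fold change over the root of F, and is approximate. Transcript usage was tested with diffSpliceDGE. Both were also run on simulated counts with the same spread for every gene and few changed genes. These libraries differ from that setting, so no result here rests on those runs. Names and the windows of 250 bases come from RefSeq TAIR10.1, in which 32818 loci were found; 10 motifs were searched.

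The lists and members were chosen with earlier results of these data known. Genes named were the 12 largest rises and 12 largest falls among calls averaging 5 CPM or more with groups that do not overlap, up to 4 members of a list by size, and a few fixed markers, with some left out for length; members of small counts and CHS, MYB12, HSP101, GOLS1 and SPS4F were named after their values were seen. Alternatives were other scalings and filters, DESeq2 1.42.0, a fit of 6 libraries, a replicate block, assembled loci kept, and each library left out.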

Additional observations from a re-analysis of the deposited data

How the results depend on the processing

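The count of genes called was within 1.5 times under every alternative run. It was 11499 in the fit of 6 libraries (5748 higher and 5751 lower) and 12122 with the replicate block. With DESeq2 it was 11764, and with a library left out 11537 to 11775. The split depended on scaling: with total counts alone 3671 genes were higher and 10337 lower, and 1113 and 2652 at least 2-fold. With a mean of at least 5 CPM, 957 were at least 2-fold higher and 765 lower. With a library left out, 5823 to 5979 were higher and 5595 to 5852 lower, and 1662 to 1704 and 1521 to 1603 at least 2-fold. Loci with shifted usage numbered 231 with a mean of at least 5 CPM, 137 by the Simes test, 285 with the replicate block and 289 to 334 with a library left out. The sign turned for GOLS3 with upper quartile factors (-0.0062) and total counts alone (-0.19). With total counts alone it also turned for CCA1 (-0.1743) and RD29A (-0.154). With total counts alone, GOLS3, CCA1 and RD29A were called lower at 0 °C (edgeR adjusted p = 7.12e-06, 0.00348 and 0.00077). With upper quartile factors GOLS3 was not called (edgeR adjusted p = 0.8535). Among list medians named in the text, those of chlorophyll (-0.0026), gibberellin (-0.16) and reference genes (-0.14) also turned with total counts alone. CCA1 also lost its call with upper quartile factors, a mean of at least 5 CPM, the 6 libraries alone or assembled loci kept. Its edgeR adjusted p there was 0.0646 to 0.834. The call was lost too without 0 °C replicate 1 (edgeR adjusted p = 0.0892) or 3 (0.0675) and without 4 °C replicate 2 (0.0740) or 3 (0.138). GOLS3 lost its call with upper quartile factors, at 5 CPM and with assembled loci kept, and RD29A with upper quartile factors. DFR lost it with total counts alone and WRKY53 without 2 single libraries. JAZ2 and LHCB7 lost theirs with RLE factors, no filter and DESeq2, and without 6 (JAZ2) and 4 (LHCB7) single libraries. LHCB7 also lost it in the fit of 6 libraries. The cause of these lost calls was not tested. Deviations of same-numbered libraries from their group means correlated at 0.0588, -0.0142 and -0.00316, and those of differently numbered libraries at -0.0722 to 0.0764. Such values cannot say whether replicate numbers pair the samples. The floral list had no tested member at 5 CPM.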

Other observations

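Autophagy genes were higher at 0 °C in 9 of 12 members and lower in none, with a median log2 fold change of 0.63. ATG8H, which encodes a protein of the autophagosome membrane, had 36.2, 34.1 and 35.4 CPM at 0 °C, against 14.3, 15.1 and 16.4 CPM at 4 °C. Ribosome biogenesis factors were lower in 10 of 16 members and higher in 4 (median -0.30); the fibrillarin FIB2 had 104, 115 and 110 CPM at 0 °C, against 187, 192 and 191 CPM at 4 °C. VIN3, a factor of vernalization, had 8.56, 7.49 and 7.95 CPM at 0 °C, against 1.05, 1.60 and 1.60 CPM at 4 °C, and its target FLC had 5.83, 6.38 and 6.38 CPM at 0 °C, against 2.46, 1.84 and 2.22 CPM at 4 °C. Of 12 reference genes 7 were higher at 0 °C and 2 lower (median 0.14, which was -0.14 by total counts alone). UBQ10, the member with the largest change and the only one past 2-fold, had 3278, 3614 and 3323 CPM at 0 °C, against 1381, 1440 and 1424 CPM at 4 °C.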
